A study of Mus musculus with 36 samples.

Results

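The replication licensing genes *Mcm2*, *Mcm3*, *Mcm4*, *Mcm5*, *Mcm6*, *Mcm7*, *Mcm10*, *Cdc6*, *Cdt1* and *Pcna* were chosen by symbol, and these 10 genes were all found among the 38887 Ensembl genes of the deposited count table. RNA was sequenced from FACS-sorted bone marrow LT-HSC and HPC-1, a progenitor population that the deposited labels call ST-HSC, both from the Lin-Sca-1+c-Kit+ gate and split by CD150 and CD48 (CD150+ and CD48- for LT-HSC, the reverse for HPC-1). Every mouse lacked apolipoprotein E, and the *Il27ra* genotypes were Apoe-/- (called WT in the labels and below), Apoe-/-Il27ra+/- (Het) and Apoe-/-Il27ra-/- (KO). Mice ate a Western diet for 12 weeks from 8 weeks of age and received PBS or Ang II (angiotensin II, 800 ng per kg per min) for 2 weeks, and each sample held 5000 sorted cells.

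The LT-HSC libraries numbered 17. After PBS there was 1 WT library, 3 Het and 3 KO, and after Ang II there were 2 WT, 4 Het and 4 KO. The 19 HPC-1 libraries comprised 2 WT, 3 Het and 3 KO after PBS and 3 WT, 4 Het and 4 KO after Ang II. Total counts ran from 1980283 to 6861078 (median 2560838) in LT-HSC and from 2272026 to 6318379 (median 3254832) in HPC-1. The lowest count of any of the 10 genes in a library was 46 in LT-HSC and 101 in HPC-1, and all 10 passed the filter on low counts. The labels say nothing on separate animals, so the p-values below measure the spread between samples.

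Licensing is the step before DNA synthesis in which a replicative helicase is loaded onto origins in an inactive form. The origin recognition complex marks the DNA, Cdc6 and Cdt1 bring in the ring of Mcm2 to Mcm7, and Mcm10 takes part when the loaded ring is switched on at the start of DNA synthesis. Cells that leave the cell cycle lose this machinery, and adult LT-HSC are known as a mostly quiescent population, whereas the progenitors downstream of them divide more often.

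Levels are given as CPM, counts scaled to a common library size with the TMM factors of edgeR. The targeted gene *Il27ra* had 17.1 CPM in the LT-HSC PBS WT library. It had 24.1, 25.6 and 42.7 CPM in PBS Het and 6.94, 9.42 and 16.3 in PBS KO. After Ang II the levels were 42.8 and 51.8 CPM in WT, 25.4 to 32.8 in Het and 11.6 to 19.3 in KO. *Il27ra* thus separated the LT-HSC KO libraries from the Het libraries. The PBS WT library lay above the PBS KO libraries but below the highest Ang II KO library, and below all Het libraries. In HPC-1 the groups overlapped (WT 6.07 to 11.9, Het 5.46 to 16.5, KO 4.64 to 11.1 CPM), so this gene did not check the genotype labels there. *Apoe*, deficient in every group, had 7.23 to 27.4 CPM in LT-HSC and 0 to 11.3 CPM in HPC-1.

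Lists of marker genes were used to check the cell type labels. The mean log2 CPM of 10 LT-HSC markers (*Slamf1*, *Procr*, *Hlf*, *Mecom*, *Fgd5*, *Hoxb5*, *Vwf*, *Tek*, *Mllt3* and *Ctnnal1*) was 5.98 to 7.21 in 15 of the LT-HSC libraries and 1.94 to 3.83 in HPC-1. The mean of 8 HPC-1 markers (among them *Cd48*, *Flt3*, *Cd34*, *Cd27*, *Dntt*, *Satb1* and *Mpo*) was 2.34 to 5.36 in those 15 libraries and 7.75 to 8.77 in HPC-1. *Slamf1* and *Cd48* encode CD150 and CD48, which the sort used. The other LT-HSC libraries were PBS KO replicate 2 and Ang II KO replicate 2, the 2 libraries set aside in a second fit. PBS KO replicate 2 had an LT-HSC marker mean of 3.69 (summed level 278 CPM) and an HPC-1 marker mean of 8.46 (5670 CPM), both within the HPC-1 range. Its *Slamf1* level was 2.36 CPM and its *Cd48* level 62.6 CPM, so its markers go against its label. Ang II KO replicate 2 had 5.79 (950 CPM) for the LT-HSC list and 6.04 (1680 CPM) for the HPC-1 list, between the other LT-HSC libraries and HPC-1. Tests of the 10 genes are given with all 36 libraries and, where calls or directions changed, without these 2.

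Other lists also set libraries apart. The 8 granulocyte genes summed to 7080 CPM in LT-HSC Ang II KO replicate 2, where *S100a9* was the most abundant, and to 1250 CPM in LT-HSC PBS KO replicate 3, against 29.1 to 472 CPM in the remaining LT-HSC libraries. The 9 erythroid genes summed to 3090 and 3460 CPM in these libraries, against at most 1430 CPM in the rest of LT-HSC. The 18 intestinal epithelium genes summed to 494 and 544 CPM in the LT-HSC Ang II WT libraries and to 326 CPM in PBS WT, against 35 to 127 CPM in Het and KO. *Krt18* had the highest median of that list in LT-HSC (85.3 CPM), but *Dmbt1* was the most abundant in both Ang II WT libraries (124 and 193 CPM). *Phgr1* was at 0 in both of these, *Cdx2* and *Elf3* in replicate 1, and *Cdx1*, *Tff3* and *Cldn7* in replicate 2. Of 7 B lymphoid genes, *Cd79b* was the most abundant, and the sum was at most 20.6 CPM in any library. Among HPC-1 libraries, Ang II Het replicate 3 had marker means within the range of its cell type (8.65 for HPC-1, 3.73 for LT-HSC), but the highest LT-HSC marker sum (396 CPM, median 229 over HPC-1) and the lowest licensing gene mean, as given below, and the part of this was not tested. The mouse sex is not in the labels. Transcripts of *Ddx3y*, *Eif2s3y*, *Kdm5d* and *Uty*, on the Y chromosome, were present in 9 of 17 LT-HSC and 15 of 19 HPC-1 libraries, among them all WT libraries. HPC-1 libraries with Y transcripts had total counts of at most 3722262, and those without had at least 4475778. In LT-HSC these limits were 2568392 and 2560838. Y transcripts, and with them the WT libraries, thus went with lower total counts.

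The level of each licensing gene was compared between genes as CPM per kilobase of the annotated exons joined (RPKM). In HPC-1 the order of the medians was *Mcm3* (149 RPKM), *Mcm6* (140), *Pcna* (98.7), *Mcm7* (89.5), *Mcm4* (73.9), *Mcm5* (69), *Mcm2* (49.8), *Cdt1* (27.2), *Mcm10* (15.3) and *Cdc6* (13.3). *Mcm3* lay above *Mcm6* in 9 of 19 libraries and *Mcm4* above *Mcm5* in 13, so these neighbours did not differ beyond their spread. LT-HSC medians ran from 75.4 RPKM for *Mcm6* through 68.9 for *Mcm3* and 63.1 for *Pcna* to 6.2 for *Mcm10* and 5.27 for *Cdc6*. Here *Mcm6* exceeded *Mcm3* in 10 of 17 libraries, and *Mcm10* exceeded *Cdc6* in 8. In both cell types the 6 subunits of the helicase ring, which take part in equal numbers in the ring, had unequal RNA levels. *Mcm2*, with the longest joined exons of the 6 (6956 bases), was the lowest by median RPKM, but by median CPM (189 in LT-HSC, 347 in HPC-1) it lay above *Mcm4* (145 and 265) and *Mcm5* (120 and 275), so its rank turned with the division by length.

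The comparison of LT-HSC with HPC-1 asks how licensing gene RNA differs between the stem cell gate and the progenitor gate. It was tested as the mean difference over the 5 conditions with at least 2 libraries of each cell type, which leaves PBS WT out. In bulk samples, fewer cells of a type and less RNA per cell cannot be told apart, and this holds for every difference below. All 10 genes were called lower in LT-HSC by edgeR's quasi-likelihood test (Benjamini-Hochberg adjusted p under 0.05), against a background of 18.4% of 18013 genes called lower. The median log2 difference was -0.83 for the 10 genes and 0.03 for all genes tested. Without the 2 libraries all 10 were again called lower (background 19.6%), with a median of -0.97 against 0.02 for all genes. DESeq2 called 10 as well (6706 genes in all, in either direction).

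**Figure D1:**
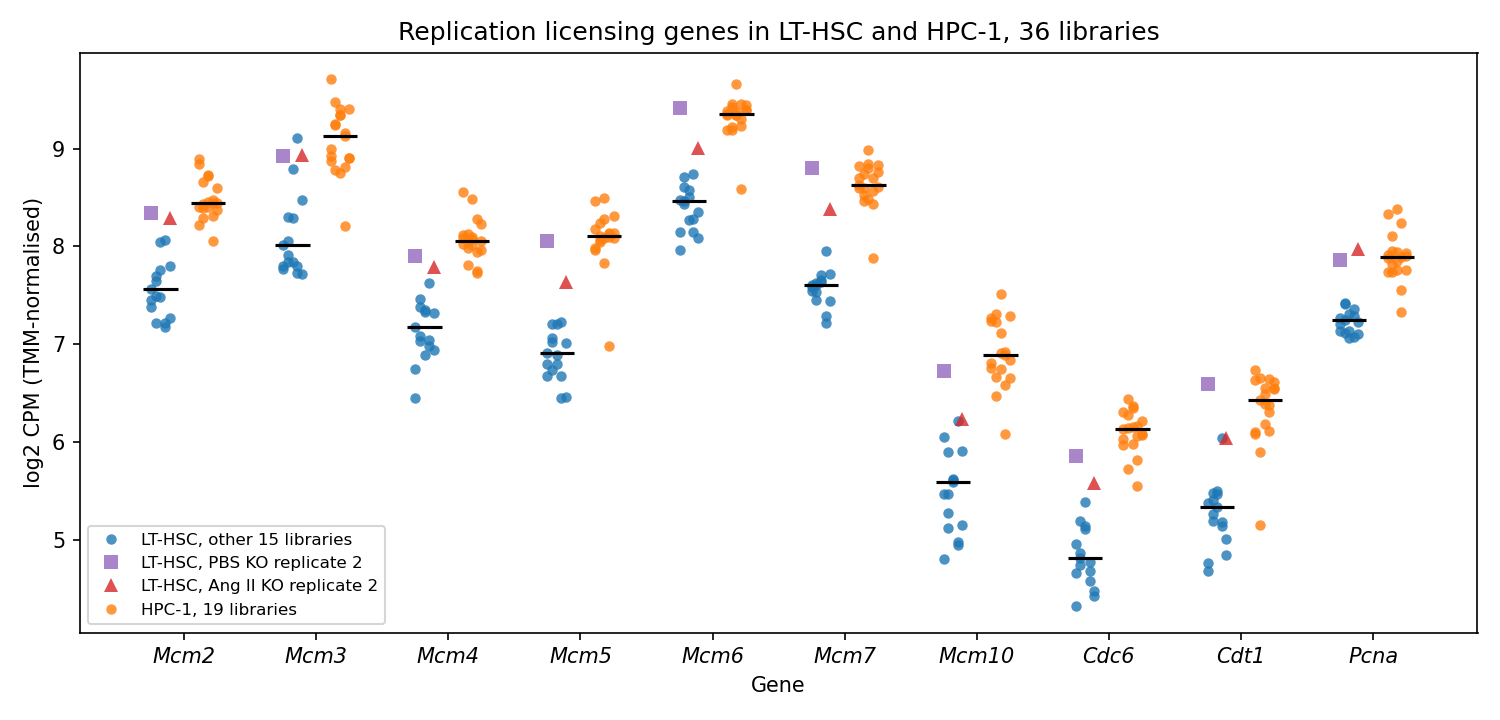
Level of each licensing gene (log2 CPM) in 17 LT-HSC and 19 HPC-1 libraries. Each point is a library, and each bar is the median over all 17 or all 19. PBS KO replicate 2 and Ang II KO replicate 2 (separate symbols) sit above nearly all other LT-HSC libraries for most genes.

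The log2 differences of the ring subunits lay between -0.89 and -0.75, apart from *Mcm5*. *Mcm2*, the subunit whose tail binds histones, had 144 to 325 CPM in LT-HSC (median 189) and 265 to 474 CPM in HPC-1 (median 347). All 17 LT-HSC libraries lay below the HPC-1 median, and 3 LT-HSC libraries reached the HPC-1 range. The log2 difference was -0.75 (SE 0.102, edgeR adjusted p 1.91e-07) and -0.89 without the 2 libraries. *Mcm3* had 210 to 552 CPM in LT-HSC (median 259) and 296 to 835 CPM in HPC-1 (median 558). It had the widest overlap of the ring genes seen from HPC-1, since 9 HPC-1 libraries lay at or below the highest of the 15 LT-HSC libraries. Its log2 difference was -0.76 (SE 0.141, edgeR adjusted p 8.17e-05) and -0.92 without the 2 libraries. *Mcm4*, which carries part of the motor activity of the ring, ranged over 87 to 239 CPM in LT-HSC (median 145) and 212 to 375 CPM in HPC-1 (median 265). The 2 libraries with HPC-1 or mixed markers were the only LT-HSC libraries in the HPC-1 range of *Mcm4*. The log2 difference of *Mcm4* was -0.80 (SE 0.0992, edgeR adjusted p 2.31e-08) and -0.91 without these libraries.

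*Mcm5*, which with *Mcm2* forms the gate through which the ring opens, had 86.9 to 266 CPM in LT-HSC (median 120) and 126 to 359 CPM in HPC-1 (median 275). Its lowest HPC-1 value, 126 CPM in Ang II Het replicate 3, was the only HPC-1 value among the LT-HSC values when the 2 libraries were set aside. The log2 difference of *Mcm5* was -1.03 (SE 0.139, edgeR adjusted p 6.3e-07) and -1.21 without the 2 libraries. *Mcm6*, the subunit that contacts Cdt1 during loading, had 249 to 681 CPM in LT-HSC (median 352) and 384 to 811 CPM in HPC-1 (median 655). PBS KO replicate 2 gave the highest LT-HSC value of *Mcm6* and was the 1 LT-HSC library above the HPC-1 median. The difference of *Mcm6* was -0.78 on the log2 scale (SE 0.1, edgeR adjusted p 7.04e-08) and -0.91 without the 2 libraries. *Mcm7*, a partner of *Mcm4* in the motor, had 149 to 444 CPM in LT-HSC (median 194) and 235 to 506 CPM in HPC-1 (median 396). It differed by -0.89 on the log2 scale (SE 0.116, edgeR adjusted p 1.94e-07) and by -1.06 without the 2 libraries, and 16 of 17 LT-HSC libraries lay below the HPC-1 median.

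The loaders had low levels. *Cdc6*, the ATPase that joins the origin recognition complex, had 19.5 to 57.6 CPM in LT-HSC (median 27.5) and 46.5 to 86.4 CPM in HPC-1 (median 69.8). The 15 LT-HSC libraries did not overlap HPC-1 for *Cdc6*, while the 2 set-aside libraries did. Its log2 difference was -1.11 (SE 0.127, edgeR adjusted p 4.32e-09) and -1.26 without them. *Cdt1*, which carries the ring to the origin and is destroyed in the DNA synthesis phase, had 25.2 to 95.8 CPM in LT-HSC (median 40) and 35.1 to 106 CPM in HPC-1 (median 85.6). Of the 15 LT-HSC libraries, 10 reached the lowest HPC-1 value (35.1 CPM in the HPC-1 library Ang II KO replicate 2), but 1 reached the next lowest, 59.1 CPM, and all 15 lay below the HPC-1 median. *Cdt1* differed by -0.85 on the log2 scale (SE 0.143, edgeR adjusted p 1.04e-05) and by -1.03 without the 2 libraries.

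The factors that act after loading differed in the most and the least degree. *Mcm10*, which is not part of the ring, had 27.3 to 105 CPM in LT-HSC (median 47.7) and 67.3 to 182 CPM in HPC-1 (median 118). Its difference was the largest of the 10 genes, -1.23 (SE 0.166, edgeR adjusted p 7.21e-07) with all libraries and -1.43 without the 2. *Pcna*, the sliding clamp of the polymerases, had 133 to 252 CPM in LT-HSC (median 151) and 160 to 333 CPM in HPC-1 (median 237). The difference of *Pcna* was the smallest, -0.59 (SE 0.0969, edgeR adjusted p 4.13e-06) and -0.70 without the 2 libraries. Within the 15 LT-HSC libraries *Pcna* varied least, with a coefficient of variation of 8.35%, while *Mcm3* varied most (34.5%). Over all 17 LT-HSC libraries *Pcna* again varied least (20.5%), and *Cdt1* varied most (40.4%). In HPC-1 the coefficient was lowest for *Mcm6* (12.7%) and highest for *Mcm10* (23.7%).

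**Figure D2:**
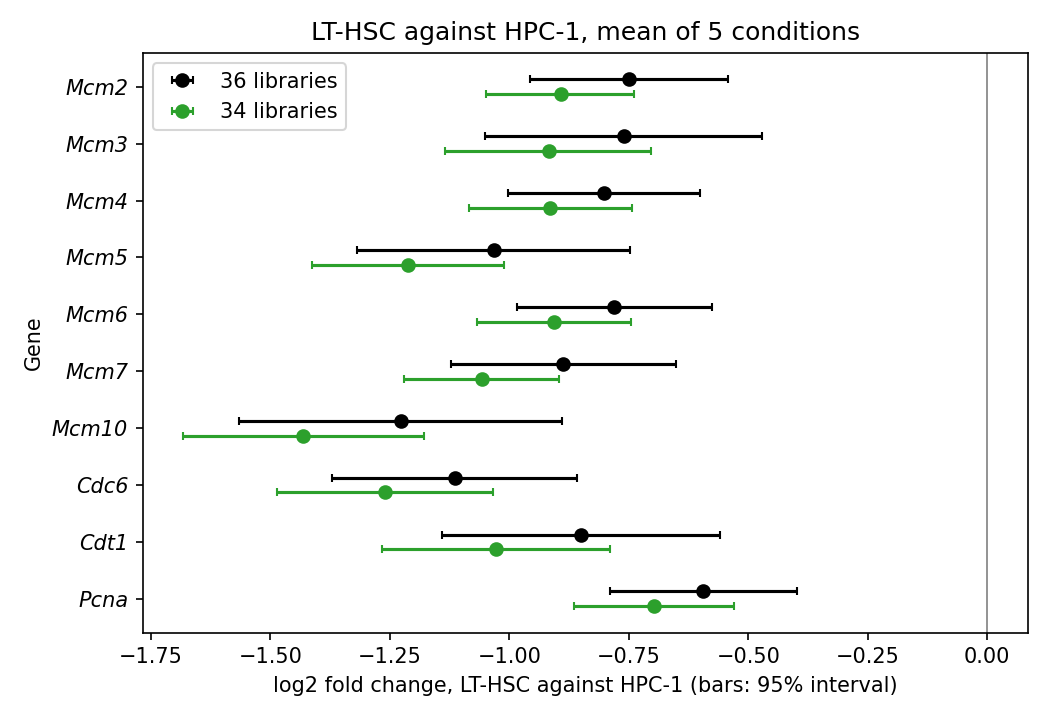
Log2 difference of LT-HSC from HPC-1 (mean of 5 conditions) for each licensing gene, with 95% intervals, from all 36 libraries and from 34. All intervals lie below 0, and the 34-library differences are larger in size for each of the 10 genes.

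Counting genes whose cell types did not overlap, 0 of the 10 had all 17 LT-HSC libraries below all 19 HPC-1 libraries, as had 0.0333% of genes. With the 15 LT-HSC libraries there were 2, *Mcm4* and *Cdc6*, against 1.53% of genes.

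The same comparison was made within each condition. The conditions share no libraries, but all were tested in 1 fit with a shared estimate of the spread. Libraries left out of 1 condition can therefore change the calls in another. In PBS Het 9 of the 10 genes were called lower in LT-HSC by edgeR (background 3.84%), all but *Pcna* (-0.64, 95% interval -1.09 to -0.19). Without the 2 libraries, neither of which is in this condition, all 10 were called (background 5.36%), and DESeq2 called 8 with all libraries (1641 genes in all). The edgeR count changed with single libraries: it was 8, 4 and 0 without LT-HSC replicates 1, 2 and 3, and 2, 4 and 3 without HPC-1 replicates 1, 2 and 3. The median difference of the 10 genes stayed between -1.09 and -0.94 in these fits. Here and below, counts with a single library left out have no share over all genes beside them. Such counts do not separate the licensing genes from genes in general.

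In PBS KO edgeR called 0 of the 10 genes, against 0.00555% of genes called lower (1 gene) and 158 genes called higher. At an unadjusted p under 0.05 there were 9 of the 10 and 1948 of 18013 genes, and DESeq2 called 0 of the 10 and 389 genes in all. The 95% intervals of the differences reached from -1.59 to 0.08, and their median was -0.70. Here PBS KO replicate 2 was 1 of 3 LT-HSC libraries: *Mcm5*, for example, had 87.4, 266 and 106 CPM in replicates 1, 2 and 3 of LT-HSC, and 249, 268 and 272 CPM in HPC-1. Replicate 2 was at the HPC-1 level and the other 2 were well below it. Leaving out that library gave 10 of 10 called and a median of -1.18, and so did leaving out both libraries (background 3.31%).

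In Ang II WT 6 genes were called lower by edgeR (background 5%) and 8 without the 2 libraries (background 6.49%). With replicate numbers fitted as a block, which assumes that they pair samples, the count was 1. The block fit has no share over all genes beside it, so its count does not separate the licensing genes from genes in general. The exceptions with 34 libraries were *Mcm3* (-0.24, 95% interval -0.76 to 0.29) and *Cdt1* (-0.84, -1.44 to -0.25, adjusted p 0.0506). *Mcm3* was the gene whose cell types lay closest in this condition, with 441 and 552 CPM in LT-HSC and 558, 679 and 509 CPM in HPC-1. With all libraries the count was 0 without LT-HSC replicate 1, 2 without LT-HSC replicate 2, and 4, 1 and 2 without HPC-1 replicates 1, 2 and 3. The background of 5% belongs to the fit with no library left out. For the same libraries DESeq2 called 7 of the 10 and 2346 genes in all.

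In Ang II Het 9 genes were called lower by edgeR (background 7.26%), all but *Pcna* (-0.50, 95% interval -0.89 to -0.11), and 10 without the 2 libraries (background 8.40%). The count was 5 without LT-HSC replicate 2. In Ang II KO 7 were called (background 5.48%), and the other 3 were *Mcm3* (-0.77, -1.34 to -0.20), *Cdt1* (-0.63, -1.20 to -0.05) and *Pcna* (-0.52, -0.91 to -0.14). Without the 2 libraries all 10 were called in Ang II KO (background 8.78%), and without LT-HSC replicate 1 or HPC-1 replicate 3 there were 4. DESeq2 called 9 in Ang II Het (3029 genes in all) and 7 in Ang II KO (2564 in all). Whether the difference between cell types itself differed between conditions was not tested.

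Averaged over the 10 genes, the log2 CPM of a library was 6.54 to 7.85 in LT-HSC (median 6.91) and 7.25 to 8.24 in HPC-1 (median 7.91). The highest LT-HSC values were 7.85 in PBS KO replicate 2 and 7.59 in Ang II KO replicate 2, and the other 15 libraries reached 7.31. The lowest HPC-1 value, 7.25, belonged to Ang II Het replicate 3, and the next was 7.62. Only this HPC-1 library fell among the 15 LT-HSC libraries.

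**Figure D3:**
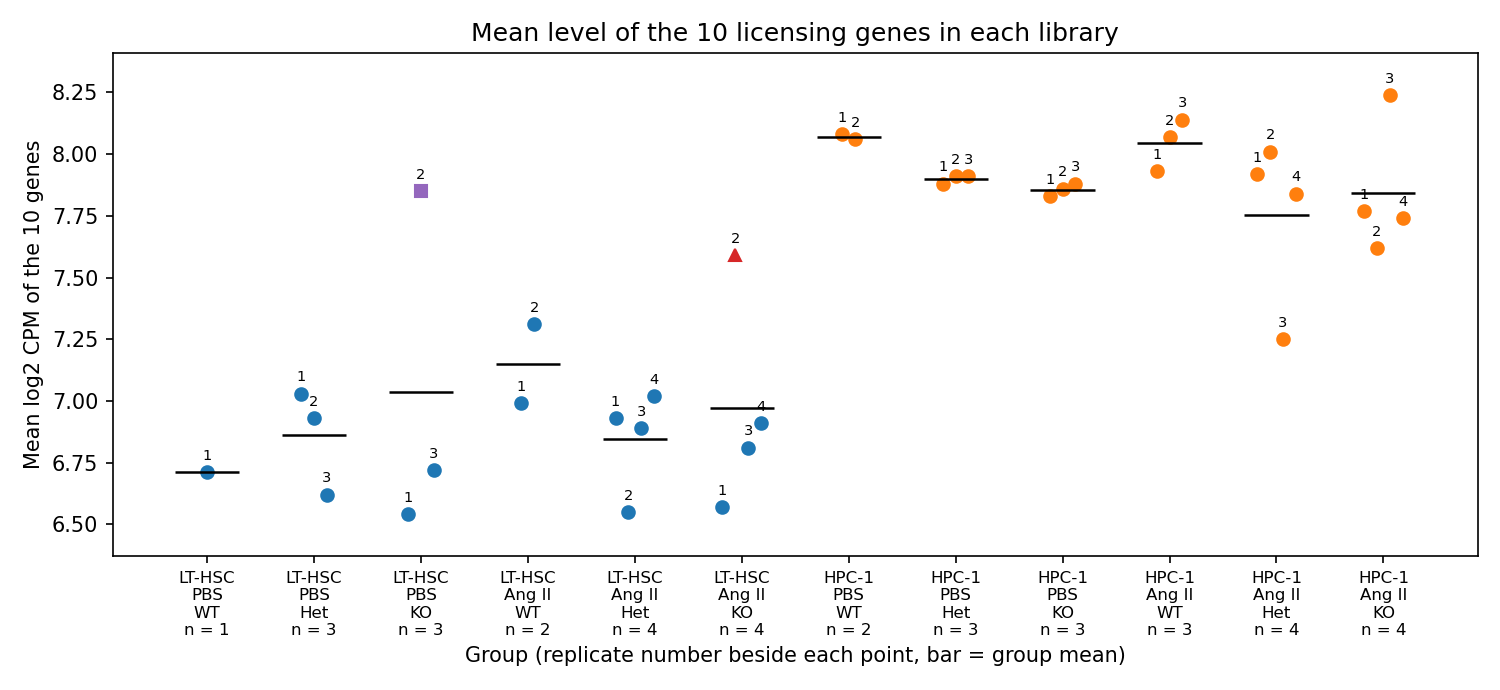
Mean log2 CPM of the 10 licensing genes in each library of the 12 groups, with replicate numbers and a bar at each group mean. LT-HSC PBS KO replicate 2 (7.85) lies among the HPC-1 libraries and HPC-1 Ang II Het replicate 3 (7.25) among the LT-HSC libraries.

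By group, this mean was 6.71 in the LT-HSC PBS WT library, 6.86 ± 0.21 (SD, n = 3) in PBS Het and 7.04 ± 0.71 (n = 3) in PBS KO. After Ang II it was 7.15 ± 0.23 (n = 2) in WT, 6.85 ± 0.21 (n = 4) in Het and 6.97 ± 0.44 (n = 4) in KO. The KO groups, each with a library set apart by its markers, had the widest spread in LT-HSC. In HPC-1 it was 8.07 ± 0.01 (n = 2) in PBS WT, 7.90 ± 0.02 (n = 3) in PBS Het and 7.86 ± 0.03 (n = 3) in PBS KO. The Ang II values in HPC-1 were 8.05 ± 0.11 (n = 3) in WT, 7.76 ± 0.34 (n = 4) in Het and 7.84 ± 0.27 (n = 4) in KO.

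The 10 genes moved with each other across libraries. Over all 36 libraries, which share the split by cell type, Pearson's r of log2 CPM between 2 of the genes ranged from 0.79 (*Mcm3* with *Pcna*) to 0.97 (*Mcm5* with *Mcm7*), with a median of 0.90 over 45 pairs. Within the 19 HPC-1 libraries the median was 0.65, from -0.08 (*Cdc6* with *Cdt1*) to 0.88 (*Mcm6* with *Mcm7*). Within LT-HSC it was 0.75 over 17 libraries and 0.45 over 15, where the pairs ran from 0.03 (*Cdc6* with *Pcna*) to 0.92 (*Mcm2* with *Mcm3*). These values describe libraries that share depth and sorting.

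Some marker lists also moved with the licensing genes within a cell type. The r between the mean of the 10 genes and the mean of the LT-HSC list was -0.86 over 17 LT-HSC libraries, -0.69 over 15 and -0.42 over 19 HPC-1 libraries. For the HPC-1 list it was 0.64 over 17 LT-HSC libraries and -0.31 over 15, so the positive value rested on the 2 libraries, and it was -0.55 over 19 HPC-1 libraries. The granulocyte list gave 0.38 over 17, -0.37 over 15 and 0.31 over 19 HPC-1 libraries. The intestinal epithelium list gave 0.03 over 17, 0.43 over 15 and 0.41 over 19 HPC-1 libraries. In the same order the erythroid list gave 0.13, -0.02 and -0.07, and the B lymphoid list 0.06, -0.15 and 0.23. *Kit* and *Ly6a*, genes of the sort gate, gave -0.49, -0.29 and -0.43. Among the 15, the lowest LT-HSC marker mean (5.98, 1280 CPM summed, *Hoxb5* at 1 CPM) and the highest licensing gene mean (7.31) were both in Ang II WT replicate 2. The part of cell composition in the licensing gene levels was not tested.

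The comparisons of Ang II with PBS ask whether licensing gene RNA changed with infusion. In LT-HSC Het edgeR called 0 of the 10 genes and 0% of 16365 genes (806 at an unadjusted p under 0.05, 0 of them among the 10), and DESeq2 called 0. The median difference of the 10 genes was -0.01 and their 95% intervals ran from -1.0 to 0.85. In LT-HSC KO edgeR again called 0 of the 10 and 0% of genes (150 at an unadjusted p under 0.05), and DESeq2 called 0 of the 10 and 1 gene in all. All 10 genes had a difference at or below 0 there (median -0.17, intervals -1.18 to 0.63), but without the 2 libraries all 10 were above 0 (median 0.13, intervals -0.50 to 0.82), so the direction rested on these libraries. For LT-HSC WT the PBS group has 1 library and was not tested.

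In HPC-1 the infusion comparisons gave 0 of the 10 genes and 0% of 13199 genes by edgeR in WT, Het and KO, with 420, 519 and 244 genes at an unadjusted p under 0.05 and 0 of the 10 by DESeq2 (1, 4 and 1 genes in all). The 10 genes had median differences of -0.03 in WT (intervals -0.84 to 0.71), -0.09 in Het (-0.65 to 0.42) and 0 in KO (-0.69 to 0.65). The estimated differences were below 0 for all 10 genes in Het (-0.26 to -0.04) and for 5 of 10 in WT and in KO, with none called. Ang II Het replicate 3 was the lowest Het library for most genes.

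Whether the Ang II difference itself differed between KO and Het was tested as an interaction. EdgeR called 0 of the 10 genes and 0% of genes in LT-HSC (414 at an unadjusted p under 0.05, DESeq2 0), and the intervals ran from -1.45 to 1.12 around a median of -0.18. In HPC-1 it called 0 of the 10 and 0% as well (169 at an unadjusted p under 0.05, DESeq2 0), with intervals from -0.81 to 0.90 and a median of 0.12. The LT-HSC median was 0.14 without the 2 libraries.

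The genotype comparisons ask whether loss of *Il27ra* went with a change in licensing gene RNA. Those within an agent share groups, so their values are only set side by side. In LT-HSC after PBS, KO against Het gave 0 of the 10 genes and 0% of genes by edgeR (653 at an unadjusted p under 0.05, DESeq2 1 gene and 0 of the 10). The median of the 10 was 0.32 with intervals from -0.60 to 1.31, and -0.24 (intervals -1.04 to 0.37) without the 2 libraries, so its sign followed PBS KO replicate 2. After Ang II, KO against Het gave 0 of the 10 and 0% (426 at an unadjusted p under 0.05, DESeq2 2 genes and 0 of the 10), with a median of 0.13 (intervals -0.67 to 1.03) and, without the 2 libraries, of -0.13.

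Against WT after Ang II the LT-HSC values turned on *Mcm3*. Its levels were 441 and 552 CPM in WT, 355, 222, 229 and 312 CPM in Het, and 222, 489, 217 and 266 CPM in KO. Both WT libraries lay above all 4 Het libraries and above the KO libraries other than replicate 2, the library with mixed markers. The PBS WT library had 259 CPM, within the Het and KO range. With all libraries, KO against WT gave 0 of the 10 genes by edgeR against 1.69% of genes (2896 genes and 0 of the 10 at an unadjusted p under 0.05, DESeq2 702 genes and 0 of the 10). *Mcm3* differed by -0.72 (95% interval -1.50 to 0.07, edgeR adjusted p 0.324). Without the 2 libraries edgeR called 2 of the 10, both lower, against 4.40% of genes in either direction (298 of 16205 genes lower). By edgeR *Mcm3* was at -1.07 (SE 0.198, adjusted p 0.00496) and *Mcm2* at -0.64 (SE 0.175, adjusted p 0.0386). Leaving out Ang II KO replicate 2 alone gave 0, as did each other single library.

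*Mcm2* levels behind that call were 263 and 267 CPM in WT and 144, 312, 166 and 200 CPM in KO, and Het had 223, 175, 179 and 215 CPM. WT was again above all Het libraries and 3 of 4 KO libraries, and the PBS WT library had 189 CPM. Het against WT after Ang II gave 0 of the 10 by edgeR against 0.831% of genes (2563 genes at an unadjusted p under 0.05, DESeq2 378 genes and 0 of the 10). *Mcm3* was the 1 licensing gene at an unadjusted p under 0.05 (-0.82, 95% interval -1.60 to -0.04, edgeR adjusted p 0.296). Neither of the 2 set-aside libraries is in the groups compared. Without them edgeR called *Mcm3* lower (-0.82, SE 0.186, adjusted p 0.0228), against 2.20% of genes in either direction (120 of 16205 genes lower). Both comparisons rest on the same 2 WT libraries, which also held the highest intestinal epithelium sums (494 and 544 CPM) and, in replicate 2, the lowest LT-HSC marker mean of the 15. The part of these in the *Mcm3* and *Mcm2* values was not tested. The estimated difference of KO from WT was below 0 for 6 of 10 genes with all libraries, with 0 called. Without the 2 libraries it was below 0 for 10, with 2 called.

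In HPC-1 no genotype comparison had a called licensing gene. After PBS, KO against WT gave 0 of the 10 by edgeR against 0.0152% of genes (2 genes called, 865 at an unadjusted p under 0.05, DESeq2 21 genes and 0 of the 10). *Mcm10* was the 1 licensing gene at an unadjusted p under 0.05, with 151 and 158 CPM in WT, 107, 101 and 107 CPM in KO and 120, 118 and 114 CPM in Het. WT lay above both other groups without overlap, and the log2 difference of KO from WT was -0.56 (95% interval -1.12 to -0.001, edgeR adjusted p 0.753). The WT libraries had intestinal epithelium means of 1.51 and 1.5, against at most 0.72 in the other HPC-1 PBS libraries, but their sums (102 and 86.9 CPM) overlapped those of the others (up to 91.7 CPM), and the part of this was not tested. KO against Het and Het against WT after PBS gave 0 of the 10 and 0% of genes by edgeR, with 151 and 631 genes at an unadjusted p under 0.05, 0 of the 10 among them, and 0 of the 10 by DESeq2 (0 and 6 genes in all). Their intervals ran from -0.67 to 0.50 and from -0.96 to 0.61.

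After Ang II, the HPC-1 comparisons of KO with WT, KO with Het and Het with WT each gave 0 of the 10 and 0% of genes by edgeR, with 661, 375 and 975 genes at an unadjusted p under 0.05 and 0 of the 10 by DESeq2 (2, 0 and 2 genes in all). *Mcm4* stood out before adjustment, with 310, 299 and 375 CPM in WT, 253, 258, 212 and 249 CPM in Het, and 261, 224, 357 and 214 CPM in KO. The 3 WT libraries were above all Het libraries and above 3 of 4 KO libraries. Its log2 difference was -0.46 in Het (95% interval -0.79 to -0.13, edgeR adjusted p 0.637) and -0.34 in KO (-0.67 to -0.01, edgeR adjusted p 0.954), both against the same WT libraries. The estimated differences from WT were below 0 for all 10 genes in both comparisons, with medians of -0.29 in Het and -0.19 in KO. None was called, and the intervals reached 0.31 in Het and 0.36 in KO. The WT libraries here also had higher intestinal epithelium means (1.63 to 2.55) than the other HPC-1 Ang II groups (at most 0.25), with sums of 110 to 325 CPM against at most 66.5 CPM, and the part of this was not tested.

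Other genes of replication were taken from lists and compared between LT-HSC and HPC-1 in the same fit, where 18.4% of the 18013 genes were called lower and 3220 genes higher. Of 7 genes for origin recognition, 3 were called lower, 0 higher and 4 were not called (median -0.36). *Orc1*, the subunit whose level changes over the cell cycle, differed by -0.90, *Orc2* by -0.54, *Mcmbp*, whose product binds free MCM proteins, by -0.73, and *Orc6* by -0.36 (not called). Of 7 genes that restrain licensing or degrade its factors, 5 were lower (median -0.30), including *Gmnn* at -1.18, whose product geminin holds Cdt1 inactive. *Gmnn* had 4.98 to 25.5 CPM in LT-HSC (median 13.6) and 11.3 to 60.5 CPM in HPC-1 (median 29.1), so the loader *Cdt1* and its inhibitor were lower in the same cell type. *Dtl* (-0.87), *Ddb1* (-0.30) and *Fbxo5* (-0.35) were also called. Of the MCM paralogues outside the ring, *Mcm8* was lower (-0.79) and *Mcm9* was not called (0.24, SE 0.12).

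Steps after licensing were lower for most genes. Of 16 genes for helicase activation, 14 were called lower (median -0.78), with *Gins1* at -1.27, *Ticrr* at -1.04, *Wdhd1* at -0.84 and *Topbp1* at -0.78. Of 12 polymerase and primase genes, 10 were lower (median -0.57), among them *Pole2* (-1.19), *Pole* (-0.77), *Prim1* (-0.57) and *Pold3* (-0.56). All 13 genes for clamp loading, the lagging strand and single-strand binding were lower (median -0.61), including *Dscc1* (-1.12), *Atad5* (-0.71), *Rfc2* (-0.57) and *Rpa1* (-0.55). For nucleotide supply, 6 of 7 were lower (median -0.68), with *Rrm2* at -1.07, *Rrm1* at -0.85 and *Dut* at -0.67. In none of these 4 lists was a gene called higher, against an all-gene median of 0.03. The 13 genes of E2F and pocket proteins, which control transcription of many licensing genes, had 4 called lower, 2 higher and 7 not called (median -0.16), and no test set these counts against the shares over all genes. The pocket protein *Rbl2* was higher in LT-HSC (0.38), with 131 to 224 CPM against 102 to 171 CPM, and its relative *Rbl1* was lower (-0.48). *Tfdp2* was also higher (0.35), while *E2f8* (-0.71) and *Tfdp1* (-0.48) were lower. Without the 2 libraries, 15 helicase activation genes, 7 for nucleotide supply and 5 of E2F and pocket proteins were called lower (background 19.6%). The counts of the other lists were the same. With all 36 libraries no gene of these lists was called in a comparison of agents or genotypes by edgeR. Without the 2 libraries, LT-HSC Ang II KO against WT had 3 of 16 helicase activation genes called lower, 2 of 13 for clamp loading, 1 of 7 licensing inhibitors and 1 of 12 for polymerases, against 4.40% of genes called in either direction.

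Leaving the 10 themselves aside, the genes whose log2 CPM followed their mean most closely over the 36 libraries, among 18013 tested, were *Uhrf1* (Pearson's r 0.965), *Hnrnpu* (0.959), *Hells* (0.951), *C1qbp* (0.949), *Ybx1* (0.948), *Mlec* (0.945), *Topbp1* (0.945) and *Usp1* (0.944). Within the 15 LT-HSC libraries r was 0.921 for *Uhrf1* and 0.661 for *C1qbp*, and within 19 HPC-1 libraries it was 0.832 for *Uhrf1*, 0.901 for *C1qbp* and 0.482 for *Mlec*. *Uhrf1* had 91 to 326 CPM in LT-HSC (median 144) and 172 to 356 CPM in HPC-1 (median 287).

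The 10 genes lie on 7 mouse chromosomes of the build mm10. *Mcm6* (ENSMUSG00000026355, chr1:128331590-128359664, minus) and *Mcm3* (ENSMUSG00000041859, chr1:20802968-20820312, minus) share chromosome 1. *Mcm10* (ENSMUSG00000026669, chr2:4989714-5012791, minus) and *Pcna* (ENSMUSG00000027342, chr2:132249162-132253314, minus) share chromosome 2. *Mcm5* (ENSMUSG00000005410, chr8:75109569-75128439, plus) and *Cdt1* (ENSMUSG00000006585, chr8:122568015-122573554, plus) share chromosome 8. The others are *Mcm7* (ENSMUSG00000029730, chr5:138164583-138172422, minus), *Mcm2* (ENSMUSG00000002870, chr6:88883474-88898780, minus), *Cdc6* (ENSMUSG00000017499, chr11:98907801-98923940, plus) and *Mcm4* (ENSMUSG00000022673, chr16:15623897-15637400, minus). *Mcm7* hosts the microRNA genes *Mir25*, *Mir93* and *Mir106b* and overlaps *Cops6* and *Ap4m1* on the opposite strand, and *Cdt1* lies inside the gene model *Gm20388* on its own strand. The library kit keeps the strand, but whether counting used it is not stated, so counts of *Mcm7* and *Cdt1* may include reads of these neighbours. *Pcna-ps2*, a processed copy of *Pcna*, held 446 counts over all libraries, 1.71% of the 26048 of *Pcna*.

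Since the 10 genes moved together, their promoters were searched for letters they share. RefSeq promoter sequences of GRCm38.p6 (250 bases before to 50 bases after the start) were held for 9 of the 10, all but *Mcm4*. The 8-base forms of the E2F motif TTTCCCGC, TTTCGCGC, TTTGCCGC and TTTGGCGC were searched on both strands. In the 250 bases before the start, at least 1 of the 4 occurred in 4 of 9 genes (*Mcm5*, *Mcm6*, *Mcm7* and *Cdc6*), against 2.16% of 27025 genes (1.86% of 32851 promoters), and in the whole 300 bases in 6 of 9 (*Mcm3* and *Cdt1* in addition), against 2.6% of genes (2.26% of promoters). CCAAT, the core of the NF-Y motif, occurred on either strand before the start in 7 of 9, all but *Cdc6* and *Cdt1*, against 37.5% of genes (33.8% of promoters). No match says only that these letters are not in the window.

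The 180-base stretches of *Mcm5* (chr8:75109329-75109508, plus) and *Mcm6* (chr1:128359706-128359885, minus) are shown because E2F forms overlap in both. In both genes the RefSeq start lies upstream of the gene span given above, so "before the start" refers to the RefSeq start. The ring subunit *Mcm7* also has a match before the start, at 165 bases, and is not shown. Capitals mark the matches of the E2F forms on either strand. In each gene the forms TTTCGCGC and TTTGGCGC overlap on opposite strands, giving TTTCGCGCCAAA in *Mcm5* and its reverse complement TTTGGCGCGAAA in *Mcm6*, a run of 12 bases held on either strand by 4 of 32851 promoters. The run was chosen after it was seen in these genes, whose own promoters are among the 4. *Mcm6* has a further TTTGGCGC nearer the start. A match is a description of letters and not a mapped binding site.
Mcm5: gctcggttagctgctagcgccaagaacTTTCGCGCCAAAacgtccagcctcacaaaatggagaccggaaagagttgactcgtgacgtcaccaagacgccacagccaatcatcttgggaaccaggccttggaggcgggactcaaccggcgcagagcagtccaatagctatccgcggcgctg
Mcm6: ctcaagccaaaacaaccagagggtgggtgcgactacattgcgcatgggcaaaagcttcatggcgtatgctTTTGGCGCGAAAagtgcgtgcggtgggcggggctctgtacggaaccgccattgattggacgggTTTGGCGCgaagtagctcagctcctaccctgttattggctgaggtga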

How the data were processed

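The authors made stranded total RNA libraries, assigned paired-end reads to Ensembl genes of mm10 with RSEM, and deposited RSEM expected counts for 36 libraries, with 0 values that were not whole and no normalization. The labels name Bowtie2 and RSEM 1.2.31, and the methods text names STAR. The Ensembl release is not stated. Symbols matched 37570 identifiers, which held 99.63% of the counts. No column was left out. Groups came from the labels.

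In R 4.3.3, edgeR 4.0.16 (filterByExpr, TMM, robust quasi-likelihood test, prior count 2) was fitted with 1 mean per group, for both cell types (18013 genes), LT-HSC (16365) and HPC-1 (13199), with Benjamini-Hochberg adjustment at 0.05 over all genes tested and 95% intervals. All 10 members are named, and of each other list up to 4 genes with the smallest adjusted p in the comparison of cell types. Some genes count in these lists but are not reported here. Rbl1, Rbl2, E2f8 and Tfdp1 follow from this, and Tfdp2 was added after its values were seen.

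Alternatives were DESeq2 1.42.0, upper-quartile normalization, library totals, no filter on low counts other than a total of 1, a mean count of at least 10, the compared groups only, a Y-linked covariate, a replicate block, each library left out in turn, and LT-HSC PBS KO replicate 2 with Ang II KO replicate 2 left out. Leaving out HPC-1 Ang II Het replicate 3 as well was chosen after seeing the data. The members and lists were chosen with earlier results of these data known.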

Additional observations from a re-analysis of the deposited data

Results flagged for a closer look

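In groups of 4 libraries, Dixon's criterion picked out a value far from the other 3 for 5 of 40 combinations of gene and group. Chance gives about 1 in 20 for independent values, which these are not: the genes move together, and 4 of the 5 came from 2 libraries. HPC-1 Ang II KO replicate 3 was far above its group for *Mcm3* (676 CPM) and *Mcm6* (811 CPM), and had the highest licensing gene mean of all libraries (8.24). Its granulocyte marker mean of 6.25 was the highest in HPC-1 (median 2.98), with a sum of 1080 CPM (median 690). LT-HSC Ang II KO replicate 2 was far above its group for *Mcm4* (221 CPM) and *Pcna* (252 CPM), and its granulocyte (7080 CPM), erythroid (3090 CPM) and HPC-1 marker sums (1680 CPM) were high as well. LT-HSC Ang II Het replicate 2 was far below its group for *Mcm4* (107 CPM). The part of marker levels in these values was not tested.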

How the results depend on the processing

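The log2 differences of the 10 genes between cell types, as the mean of 5 conditions, kept direction and side of the threshold under each alternative. The other results are counts of genes called, taken as kept within 1.5 times the count with all libraries. On that basis 802 of 821 alternative values for all 33 results were kept, 13 counts were lower and 6 were higher. Counts carry no direction, and most were 0: without the 2 libraries the LT-HSC medians of KO after Ang II against PBS, of KO against Het after each agent and of the interaction changed sign. The mean difference between cell types had 10 of 10 genes called under all 43 alternatives run, including the replicate block and the 34-library and 33-library fits (the last chosen after seeing the data). Over these, log2 differences ran from -1.44 to -1.13 for *Mcm10* and from -0.70 to -0.50 for *Pcna*. The all-gene median moved from 0.03 to 0.12 with DESeq2, to 0.13 with library totals and to 0.16 with no filter.

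The counts within conditions depended on the libraries. Leaving out each library in turn gave 0 to 8 genes for PBS Het, 0 to 10 for PBS KO, 0 to 4 for Ang II WT, 5 to 10 for Ang II Het and 4 to 9 for Ang II KO. In PBS KO the count was 5 with no filter and 10 without the 2 libraries set apart by their markers. Without these 2, LT-HSC after Ang II had 2 genes for KO against WT and 1 for Het against WT, where no filter also gave 1. The counts with no filter have no share over all genes beside them, so they do not separate the licensing genes from genes in general. The other agent and genotype counts were 0 under each alternative. Beyond the numbers of samples, the cause was not tested.

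With the replicate block the Ang II WT count was 1 in place of 6, and no share over all genes stands beside the 1. The block assumes that numbers pair samples. Over 16 pairs of LT-HSC and HPC-1 with the same condition and number, r of the residuals was -0.197 to 0.317 (median 0.068), with 7 above 0.1. Replicate 2 of PBS Het and PBS KO and replicate 3 of Ang II Het and Ang II KO had Y transcripts in HPC-1 only. The numbers thus do not pair all samples. The 7 values above 0.1 were all in other pairs, and whether those share animals is not known.

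With 1 to 4 libraries a group, the 95% intervals of agent and genotype differences reached from -1.60 to 1.31. Where a library left out leaves 1 in Ang II WT, that sample is assumed to vary like the other groups. Counts of the 10 genes were at least 46 in each library. Sex was not in the labels, all WT libraries carry Y transcripts, and LT-HSC PBS WT has 1 library. Protein and cell cycle phase were not analysed here.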
